A study of Mus musculus with 24 samples.

Results

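The genes described here make nitric oxide or govern the arginine it is made from. They are Nos2 (inducible nitric oxide synthase), Gch1 (GTP cyclohydrolase 1, the first enzyme of tetrahydrobiopterin synthesis), Slc7a2 (the cationic amino acid transporter CAT2), Ass1 and Asl (argininosuccinate synthase and lyase) and Arg2 (mitochondrial arginase). They were chosen by symbol for these roles, with earlier results of these data known. All 6 were present among the 17094 genes of the table. All 6 also passed the low-value filter of 1 FPKM (fragments scaled to transcript length and library size) in at least 3 libraries, which left 12178 genes for testing. Arg2 passed it through its IL-1β-treated libraries only, so it had to differ between treated and untreated cells.

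The cells were primary chondrocytes of wild-type (WT) mice, sequenced as poly(A)-enriched mRNA in 24 libraries. They fell into 8 groups of 3: co-culture with IL-1β, normal culture with IL-1β, co-culture without IL-1β and normal culture without IL-1β, each at 36 h and at 72 h. In co-culture the chondrocytes, which were collected from the lower chamber, shared a transwell with primary dermal fibroblasts (DFbs, from skin). Which medium co-cultured cells were kept in was not stated. IL-1β, an inflammatory cytokine, was used at 10 ng/ml from 24 h after the cells attached, and both times were counted from its addition. The labels gave no age, sex or strain, and they did not say whether the 3 libraries of a group came from separate animals or cultures. The p-values therefore measure the spread between these libraries, which may be technical.

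Of 11 chondrocyte markers 10 were tested, and all 10 fell with IL-1β in both cultures at both times, while Matn1 never exceeded 0.07 FPKM. Among all tested genes 41.5% fell in normal culture at 36 h and 40.3% at 72 h, and 35.3% and 30.6% in co-culture. Matn3 and Col9a2 lay near the filter, at highest values of 1.99 and 3.53 FPKM. A marker that passed it through untreated libraries only had to fall, and this was not checked. The summed level of the 11 genes was 288 to 332 FPKM across the 12 IL-1β libraries, against 788 to 1142 FPKM across the 12 untreated libraries. Fibroblast markers summed to between 2399 and 5078 FPKM in every library. In bulk RNA, fewer cells of a type and less RNA per cell cannot be told apart. Library 1 of the normal culture with IL-1β at 72 h was the highest of its group for 5 of the 6 genes. Over all tested genes that group had the widest residual SD, 0.168 on the log2 scale, against 0.0853 to 0.119 in the other 7 groups.

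Nitric oxide synthases oxidise arginine to citrulline and nitric oxide, and the inducible form is controlled mainly through its transcript and needs tetrahydrobiopterin as a cofactor. Argininosuccinate synthase and lyase turn citrulline back into arginine, CAT2 carries arginine into the cell, and arginases compete for it by making ornithine and urea. In cartilage, inducible nitric oxide synthase is a well-known response of chondrocytes to IL-1.

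On GRCm38 with GENCODE vM21, all 6 are protein-coding genes: Nos2 on chromosome 11 (78920787 to 78960254, plus strand), Gch1 on 14 (47153895 to 47189413, minus) and Slc7a2 on 8 (40862396 to 40922308, plus). Ass1 lies on chromosome 2 (31470207 to 31520672, plus), Asl on 5 (130011258 to 130029247, minus) and Arg2 on 12 (79130777 to 79156301, plus). The end of Arg2 overlaps Vti1b on the opposite strand, and strand-specific counting was not stated. Vti1b stood at 44.9 to 61.7 FPKM in every library, including the untreated ones in which Arg2 stood at 0.17 FPKM or lower.

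Upstream sequence from the RefSeq promoter table matched 2 of the 6 genes, Gch1 and Ass1. The Gch1 window is shown because its transcript tracked that of Nos2 most closely among the 6. It covers the 250 bases before the RefSeq start, chr14:47189414-47189663 on GRCm38.p6, minus strand, 5′ to 3′, with matches to CCAAT and GGGCGG in capitals:
Gch1: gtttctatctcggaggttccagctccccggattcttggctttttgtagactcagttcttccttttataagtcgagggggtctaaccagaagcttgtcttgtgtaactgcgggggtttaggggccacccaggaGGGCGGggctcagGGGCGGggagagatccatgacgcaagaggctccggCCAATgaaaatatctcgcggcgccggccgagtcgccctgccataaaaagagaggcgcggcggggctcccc
The CCAAT match begins 70 bases before the start, and the GGGCGG matches begin 118 and 105 bases before it. The motifs were searched on both strands. Of the 32851 windows of this length in the table, 33.8% held CCAAT and 32.7% held GGGCGG. The degenerate kappa B form, GGG and CC separated by any 5 bases, matched 3 times in the Gch1 window and 6 times in that of Ass1, and 45.8% of all windows held it. The Ass1 window had 75.6% G and C, against 59.2% for Gch1, and held CACGTG once, as did 6.02% of all windows. The last 63 bases of the Ass1 window lay inside the annotated gene. Its CACGTG match, which began 36 bases before the RefSeq start, fell in that part. The antioxidant-response form TGACNNNGC was found in neither window and in 10.2% of all. A match is a run of letters only, and the matches say nothing about binding.

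IL-1β raised Nos2, Gch1, Slc7a2, Ass1 and Asl in co-culture at 36 h, as it did in normal culture at both times. At 72 h in co-culture it raised 4 of these 5, and Asl was not called. Arg2, which had to differ by the filter, is not counted here and is described below. A gene was called where limma's adjusted p was under 0.05. Among all tested genes 67.5% were called in either direction for IL-1β in normal culture at 36 h, 63.4% in normal culture at 72 h, 58.7% in co-culture at 36 h and 49.1% in co-culture at 72 h. The genes called higher made up 25.9%, 23.1%, 23.4% and 18.5% of all tested genes in the same order, and those called lower 41.5%, 40.3%, 35.3% and 30.6%. The median change over all tested genes, as a difference of log2(FPKM + 1), was -0.09, -0.08, -0.06 and -0.06. Of the called genes at 72 h in normal culture 36.4% were higher, against 23.6% after rescaling to TPM and 48.2% after median-of-ratios scaling. In co-culture, TPM gave 29.8% at 36 h and 23.9% at 72 h, where the unscaled values gave 39.9% and 37.6%. TPM moved the median of all genes by IL-1β at 72 h in normal culture to -0.20.

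**Figure D1:**
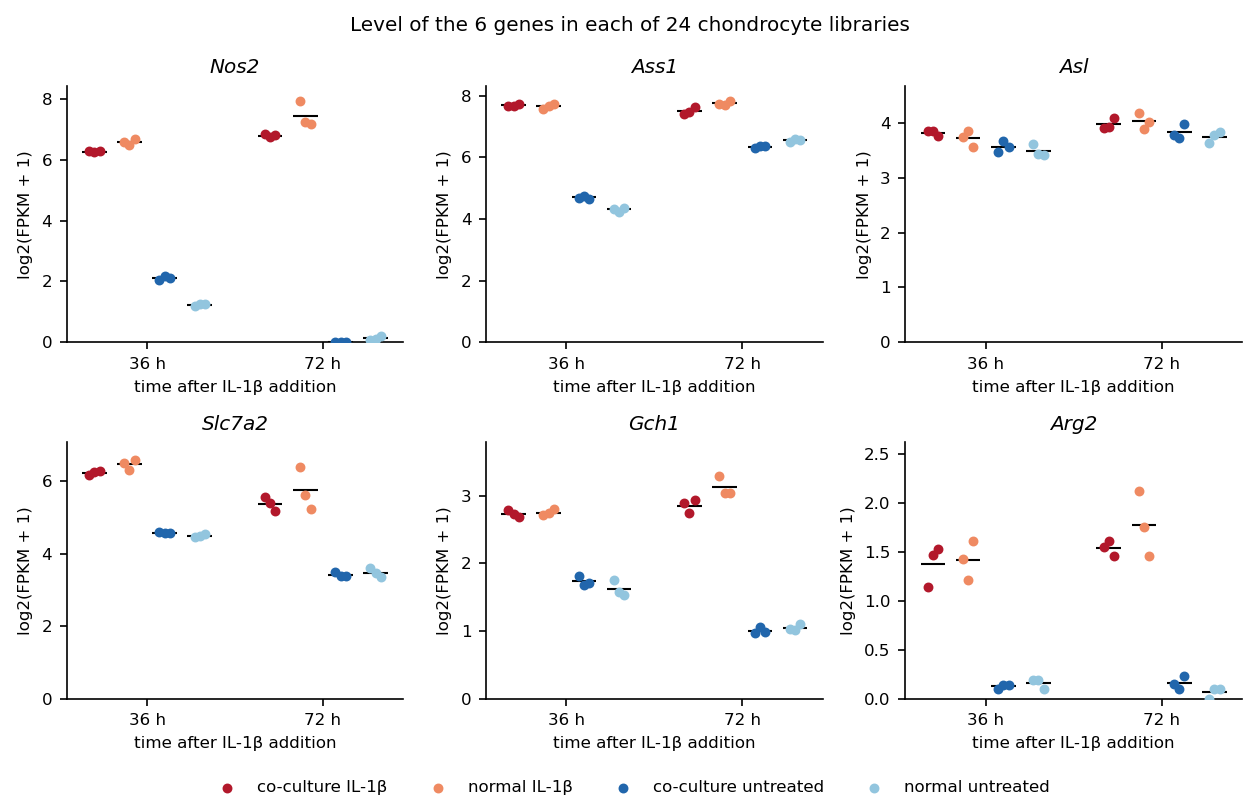
Level of each of the 6 genes as log2(FPKM + 1) in each of the 24 libraries, by time after IL-1β addition. Points are libraries, colours give culture and treatment, and black lines are group means of 3 libraries. The IL-1β and untreated libraries of Nos2, Ass1, Slc7a2 and Gch1 do not overlap at either time, while those of Asl do. Those of Arg2, which passed the filter through treated libraries only, do not overlap either. The share of all genes that separate in this way was not computed.

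Nos2 was at or below 3.55 FPKM in every untreated library and at 74.6 FPKM or above in every IL-1β library. With IL-1β at 36 h its level was 76.7, 74.6 and 77.4 FPKM in co-culture and 94.4, 89.3 and 102 FPKM in normal culture. Without IL-1β at 36 h it was 3.15, 3.55 and 3.36 FPKM in co-culture and 1.28, 1.37 and 1.37 FPKM in normal culture. All 4 groups were separate at 36 h, with co-culture lower than normal culture under IL-1β and higher without it.

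At 72 h, Nos2 with IL-1β stood at 113, 106 and 111 FPKM in co-culture and at 242, 149 and 144 FPKM in normal culture. Without IL-1β at 72 h it was listed at 0.01 FPKM in all 3 co-culture libraries and at 0.05, 0.09 and 0.16 FPKM in normal culture. The highest normal-culture value, 242 FPKM, belonged to library 1, and the remaining 2 libraries of that group still lay above all co-culture libraries. From highest to lowest, the group means were IL-1β normal 72 h, IL-1β co-culture 72 h, IL-1β normal 36 h, IL-1β co-culture 36 h, untreated co-culture 36 h, untreated normal 36 h, untreated normal 72 h and untreated co-culture 72 h. No 2 neighbours in that order overlapped.

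The IL-1β change of Nos2 on the log2(FPKM + 1) scale was 4.15 in co-culture and 5.36 in normal culture at 36 h, and 6.78 in co-culture and 7.31 in normal culture at 72 h, each with an SE of 0.115 (limma, adjusted p = 5.86e-18 or lower). These changes ranked between 3 and 6 from the top of 12178 genes. As a ratio of mean FPKM, Nos2 was 22.7-fold higher with IL-1β in co-culture and 71.2-fold higher in normal culture at 36 h. No fold is given at 72 h, where untreated cells were close to 0 and the pseudocount of 1 sets the size of the fitted change. The IL-1β change at 36 h was smaller in co-culture than in normal culture by -1.21 ± 0.162 (SE, adjusted p = 7.69e-05), and 6.96% of all genes were called in that test of the difference. At 72 h the corresponding difference was -0.53 ± 0.162 (adjusted p = 0.0699), and 3.11% of all genes were called. That difference was called when library 1, 2 or 3 of the treated normal culture was left out (-0.29, -0.64 and -0.66, adjusted p = 0.0342, 0.0196 and 0.0216). On the log2(FPKM + 0.1) scale it had the opposite sign and was not called (0.17, adjusted p = 0.699).

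Between 72 h and 36 h, 3 of the 6 genes were called in co-culture with IL-1β and 5 in normal culture with IL-1β, where 64.3% and 69.1% of all genes were. Without IL-1β, 5 were called in each culture, where 61.5% of all genes were in co-culture and 58.4% in normal culture. Time moved Nos2 in opposite directions in treated and untreated cells. Between 72 h and 36 h it rose by 0.52 in co-culture and by 0.86 in normal culture with IL-1β, and it fell by 2.11 in co-culture and by 1.09 in normal culture without IL-1β (adjusted p = 0.000425 or lower for each). The difference between the IL-1β change at 72 h and that at 36 h was 2.63 ± 0.162 in co-culture and 1.95 ± 0.162 in normal culture (adjusted p = 5.47e-11 and 3.68e-09). In these tests 28.8% of all genes were called in co-culture and 45.4% in normal culture. The pseudocount set these sizes where untreated cells were close to 0. On the log2(FPKM + 0.1) scale the untreated falls were -4.97 in co-culture and -2.88 in normal culture, and the differences between the IL-1β changes were 5.50 and 3.75, all still called.

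Marker genes of other cells also moved with time. Of 8 skeletal muscle markers, all 8 were lower at 72 h than at 36 h in both untreated groups and in normal culture with IL-1β, and 7 were in co-culture with IL-1β. They summed to 115 to 150 FPKM at 72 h against 271 to 291 FPKM at 36 h in co-culture with IL-1β, and to 94.7 to 108 against 335 to 356 FPKM in normal culture with IL-1β. Without IL-1β the sums were 63.2 to 75.3 FPKM at 72 h against 269 to 302 FPKM at 36 h in co-culture, and 46.3 to 54.6 against 292 to 333 FPKM in normal culture. Of 8 tested macrophage markers, 7 were higher at 72 h in each of the 4 conditions. Of all 12178 tested genes, 3032 to 3892 were lower at 72 h in these conditions and 4027 to 4524 were higher. The muscle marker Ckm and the macrophage markers Adgre1 and Itgam lay near the filter (medians 0.78, 1.135 and 1.035 FPKM). Whether they passed it at 1 time only was not checked. Their list summed to 30.8 to 42.3 FPKM at 72 h and to 14.1 to 23.5 FPKM at 36 h over the 12 libraries of each time. Fibroblast markers summed to 2399 to 3182 FPKM at 72 h and to 3592 to 5078 FPKM at 36 h. The part of such cells in the changes of the 6 genes with time was not tested.

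Gch1 followed the same order of treatment and time at a lower level. With IL-1β at 36 h it stood at 5.90, 5.66 and 5.43 FPKM in co-culture and at 5.54, 5.69 and 5.99 FPKM in normal culture. Without IL-1β at 36 h it stood at 2.51, 2.19 and 2.28 FPKM in co-culture and at 2.37, 1.99 and 1.90 FPKM in normal culture. The treated and untreated libraries did not overlap at 36 h, and the 2 cultures overlapped within each treatment.

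At 72 h, Gch1 with IL-1β stood at 6.40, 5.68 and 6.65 FPKM in co-culture and at 8.80, 7.25 and 7.27 FPKM in normal culture. Without IL-1β it stood at 0.96, 1.08 and 0.98 FPKM in co-culture and at 1.05, 1.02 and 1.14 FPKM in normal culture. The cultures were separate only under IL-1β, where every co-culture library was below every normal-culture library. The IL-1β change was 1.00 in co-culture and 1.13 in normal culture at 36 h, and 1.85 in co-culture and 2.08 in normal culture at 72 h, with an SE of 0.0715 (adjusted p = 6.03e-11 or lower). It was larger at 72 h than at 36 h by 0.85 ± 0.101 in co-culture and by 0.95 ± 0.101 in normal culture (adjusted p = 1.33e-06 and 1.37e-07). As for Nos2, the untreated level fell with time, by 0.73 in co-culture and by 0.57 in normal culture (adjusted p = 1.39e-08 and 4.92e-07).

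Slc7a2 was the only one of the 6 whose level fell with time in all 4 conditions. With IL-1β at 36 h it stood at 71.3, 75.0 and 76.8 FPKM in co-culture and at 89.6, 78.9 and 94.7 FPKM in normal culture. Without IL-1β at 36 h it stood at 23.3, 23.0 and 22.8 FPKM in co-culture and at 21.2, 21.6 and 22.3 FPKM in normal culture. Every treated library was above every untreated one. Co-culture lay below normal culture under IL-1β and slightly above it without IL-1β, in both cases without overlap.

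At 72 h, Slc7a2 with IL-1β stood at 46.1, 41.1 and 35.1 FPKM in co-culture and at 83.8, 48.4 and 36.5 FPKM in normal culture. Without IL-1β it stood at 10.2, 9.38 and 9.51 FPKM in co-culture and at 11.1, 10.2 and 9.34 FPKM in normal culture. Library 1 of the treated normal culture was again the highest, and the cultures overlapped within both treatments. The IL-1β change was 1.65 in co-culture and 1.96 in normal culture at 36 h, and 1.96 in co-culture and 2.27 in normal culture at 72 h, with an SE of 0.166 (adjusted p = 1.86e-08 or lower). Without that library 1 the normal-culture change at 72 h was 1.94. Between 72 h and 36 h, Slc7a2 fell by 0.86 in co-culture and by 0.71 in normal culture with IL-1β, and by 1.17 in co-culture and by 1.02 in normal culture without it (adjusted p = 0.000669 or lower). The difference between the IL-1β change at 72 h and that at 36 h was 0.31 ± 0.235 in each culture (adjusted p = 0.361 in co-culture and 0.295 in normal culture). In normal culture it was -0.02 without library 1 of the treated cells at 72 h and 0.57 without library 3 (adjusted p = 0.924 and 0.0166). In fits of the 4 compared groups alone, the difference in co-culture was called (0.31, adjusted p = 0.0303). The same kind of fit called the difference between the IL-1β change in co-culture and that in normal culture at 36 h (-0.31, adjusted p = 0.0114), which was not called in the fit of all groups.

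Ass1 was the most abundant of the 6 on average and rose more with time in untreated cells than any other of them. With IL-1β at 36 h it stood at 203, 203 and 209.7 FPKM in co-culture and at 189, 204 and 210.1 FPKM in normal culture. Without IL-1β at 36 h it stood at 24.9, 25.9 and 24.1 FPKM in co-culture and at 19.2, 17.9 and 19.6 FPKM in normal culture. Treated and untreated libraries were far apart at 36 h, and only the untreated cultures were separate from each other.

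At 72 h, Ass1 with IL-1β stood at 167, 175 and 197 FPKM in co-culture and at 211, 207 and 224 FPKM in normal culture. Without IL-1β it stood at 78.1, 81.8 and 81.1 FPKM in co-culture and at 89.4, 96.0 and 92.8 FPKM in normal culture. At 72 h every co-culture library was below every normal-culture library of the same treatment. The treated level lay between 167 and 224 FPKM at both times, while the untreated level at 72 h was 3.22-fold that at 36 h in co-culture and 4.90-fold in normal culture. On the log2 scale that rise was 1.65 in co-culture and 2.24 in normal culture, with an SE of 0.0538 (adjusted p = 1.43e-16 and 9.20e-19), and in normal culture it ranked 7 from the top of 12178 genes.

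The IL-1β change of Ass1 was 2.99 in co-culture and 3.34 in normal culture at 36 h, and 1.15 in co-culture and 1.20 in normal culture at 72 h (adjusted p = 3.75e-14 or lower). The change at 72 h was smaller than that at 36 h by -1.84 ± 0.0761 in co-culture and by -2.14 ± 0.0761 in normal culture (adjusted p = 6.01e-14 and 4.01e-15). These ranked 9 and 8 from the bottom of all tested genes. In the same test Nos2 had a positive difference in both cultures.

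Asl, which completes the return of citrulline to arginine, lay between 9.70 and 17.01 FPKM over all 24 libraries. Its mean with IL-1β was 13.1 ± 0.514 FPKM in co-culture and 12.2 ± 1.27 FPKM in normal culture at 36 h, against 10.9 ± 0.854 and 10.2 ± 0.837 FPKM without IL-1β (SD, n = 3). At 72 h it was 14.7 ± 1.12 FPKM in co-culture and 15.4 ± 1.61 FPKM in normal culture with IL-1β, against 13.2 ± 1.39 and 12.5 ± 0.983 FPKM without it. All neighbouring groups in the order of its means overlapped. Without IL-1β it rose by 0.26 between 36 h and 72 h in each culture (adjusted p = 0.0127 in co-culture and 0.0142 in normal culture). The untreated call was lost in co-culture when either of 2 libraries was left out (adjusted p = 0.0681 and 0.0956), and in normal culture when any of 3 was (adjusted p = 0.0535, 0.0599 and 0.0699). With IL-1β it rose by 0.31 in normal culture (adjusted p = 0.00314) and was not called in co-culture (0.16, adjusted p = 0.109). The IL-1β change was 0.25 in co-culture and 0.23 in normal culture at 36 h, and 0.15 in co-culture and 0.28 in normal culture at 72 h, with an SE of 0.0865 (adjusted p = 0.0191, 0.0246, 0.172 and 0.00751). After rescaling to TPM none of the 4 was called: the change was 0.18 in both cultures at 36 h (adjusted p = 0.0679 in co-culture and 0.0678 in normal culture) and 0.17 in normal culture at 72 h (adjusted p = 0.0797). Leaving out single libraries also ended each of the 3 calls, by 3 libraries in co-culture and 4 in normal culture at 36 h, and by 2 in normal culture at 72 h.

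Arg2 was close to 0 without IL-1β and low with it. At 36 h its treated level stood at 1.21, 1.77 and 1.89 FPKM in co-culture and at 1.70, 1.32 and 2.05 FPKM in normal culture. At 72 h it stood at 1.93, 2.06 and 1.76 FPKM in co-culture and at 3.36, 2.38 and 1.75 FPKM in normal culture. The 4 treated groups overlapped one another. The 12 untreated libraries lay between 0 and 0.17 FPKM, so no fold is given. The IL-1β change on the log2(FPKM + 1) scale was 1.26 in both cultures at 36 h, and 1.38 in co-culture and 1.72 in normal culture at 72 h, with an SE of 0.123. These values are a description, since the filter kept Arg2 only through its treated libraries. In normal culture with IL-1β, Arg2 rose by 0.36 between 36 h and 72 h (adjusted p = 0.0125), and its IL-1β change was larger at 72 h by 0.46 ± 0.174 (adjusted p = 0.0366). Both calls were lost without library 1 of that group at 72 h (0.19 and 0.28, adjusted p = 0.132 and 0.117). They were also lost without library 2 of the treated normal culture at 36 h (adjusted p = 0.0872 and 0.110). Fits of the compared groups alone lost both as well (adjusted p = 0.0910 and 0.0827). The rise was not called with a pseudocount of 0.1 (adjusted p = 0.0807). The difference between the IL-1β changes was not called after rescaling to TPM (adjusted p = 0.0559) or without several other single libraries.

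Arg1, the cytosolic arginase of liver and of some macrophages, belongs to the list of arginine enzymes and reached levels above those of Arg2. At 36 h its treated level averaged 4.70 ± 0.358 FPKM in co-culture and 3.45 ± 0.327 FPKM in normal culture. At 72 h it averaged 2.54 ± 0.502 FPKM in co-culture and stood at 7.85, 2.52 and 2.25 FPKM in normal culture. The 12 untreated libraries did not exceed 0.27 FPKM, so Arg1, like Arg2, passed the filter through its treated libraries only. On the FPKM scale, the level of Nos2 was above those of Arg1 and Arg2 in every treated library.

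**Figure D2:**
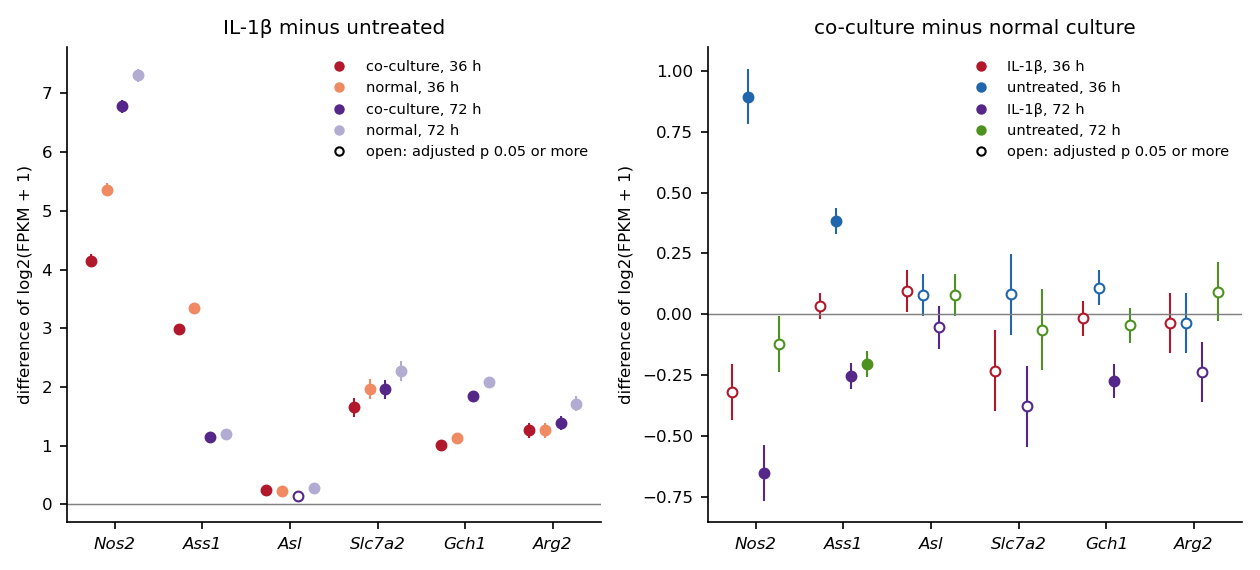
Difference of log2(FPKM + 1) between IL-1β and untreated cells (left) and between co-culture and normal culture (right) for each of the 6 genes, with SE bars from the limma fit. Filled points have an adjusted p under 0.05. IL-1β changes of Nos2 grow and those of Ass1 shrink between 36 h and 72 h, and co-culture changes are within 1 log2 unit.

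Co-culture was called for at most 3 of the 6 genes in any comparison. Without IL-1β at 36 h, Nos2 and Ass1 were higher in co-culture, by 0.89 ± 0.115 and 0.38 ± 0.0538 (adjusted p = 8.58e-06 and 2.67e-05), and the other 4 were not called. Among all tested genes 15.5% were called, and 6.28% were higher. As ratios of mean FPKM these were 2.50-fold for Nos2 and 1.32-fold for Ass1. Without IL-1β at 72 h only Ass1 was called, lower in co-culture by -0.20 ± 0.0538 (adjusted p = 0.0367), with 3.40% of all genes called and 1.68% lower. That call was lost under median-of-ratios scaling (adjusted p = 0.0528) and when any of the 6 libraries compared was left out. Nos2 at 72 h without IL-1β was listed at 0.01 FPKM in each co-culture library, below all normal-culture libraries. It was not called on the log2(FPKM + 1) scale (-0.12, adjusted p = 0.592) but was on the log2(FPKM + 0.1) scale (-0.83, adjusted p = 0.0037).

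With IL-1β at 36 h none of the 6 genes was called for co-culture by limma, where 10.6% of all genes were, and only Nos2 had an unadjusted p under 0.05. Its co-culture libraries lay below the normal-culture ones without overlap (log2 change -0.32 ± 0.115, adjusted p = 0.0835). In a fit of these 2 groups alone, Nos2 and Slc7a2 were called (adjusted p = 0.00246 and 0.0328).

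With IL-1β at 72 h, Nos2, Ass1 and Gch1 were lower in co-culture, by -0.65 ± 0.115, -0.25 ± 0.0538 and -0.27 ± 0.0715 (adjusted p = 0.00158, 0.00477 and 0.0167), with 12.5% of all genes called and 5.26% lower. Mean Nos2 was 109.9 ± 3.69 FPKM in co-culture against 178 ± 55.2 FPKM in normal culture, and the libraries of all 3 genes were separate. Single libraries changed these calls. Without library 1 of the normal culture the Nos2 change was -0.41 (adjusted p = 0.000258), that of Ass1 was -0.26 (adjusted p = 0.0149) and that of Gch1 was -0.19 (adjusted p = 0.114). Gch1 was also not called without library 2 of the co-culture (-0.22, adjusted p = 0.0967). Without library 3 of the normal culture, Slc7a2 and Arg2 were called as well (-0.64 and -0.40, adjusted p = 0.00371 and 0.0204). In a limma fit of these 2 groups alone, 0 of the 12178 genes passed the threshold, and 1418 had an unadjusted p under 0.05.

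The effect of co-culture on untreated cells differed between the times for Nos2 and Ass1, being lower at 72 h than at 36 h by -1.02 ± 0.162 and -0.59 ± 0.0761 (adjusted p = 0.000423 and 3.79e-05), with 4.97% of all genes called. Under IL-1β the same difference was called for Ass1 only (-0.29 ± 0.0761, adjusted p = 0.0446, with 2.60% of all genes called), and that call was lost without filter, in a fit of the 4 groups alone and when any of 8 of the 12 libraries was left out. Ass1 also had a smaller IL-1β change in co-culture than in normal culture at 36 h (-0.35 ± 0.0761, adjusted p = 0.00623).

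Related genes were described by 9 lists, chosen with earlier results of these data known, with 81 genes in all, of which 66 were tested. Their medians below are of the IL-1β change in normal culture, where all tested genes had medians of -0.09 at 36 h and -0.08 at 72 h. Each list count there reads against the 25.9% of all tested genes that were higher and the 41.5% that were lower at 36 h, and against 23.1% and 40.3% at 72 h. The other nitric oxide synthases, Nos1 and Nos3, never exceeded 0.18 FPKM, so Nos2 was the only synthase above the filter. Of the 5 tested regulators that bind nitric oxide synthases, 4 fell and 1 rose with IL-1β in normal culture at 36 h, and 1 fell and 1 rose at 72 h (medians -0.35 and -0.02). Cav1, a membrane scaffold protein that inhibits the endothelial form, fell by 0.88 at 36 h and by 1.05 at 72 h.

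**Figure D3:**
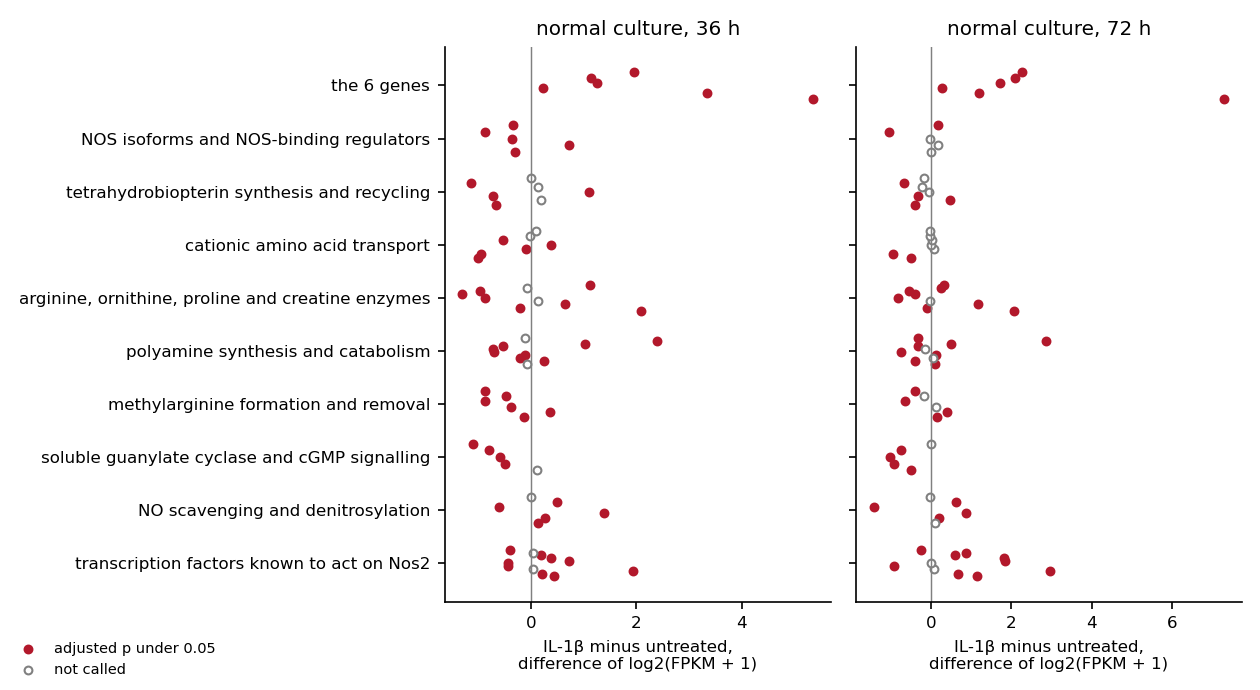
Difference of log2(FPKM + 1) between IL-1β and untreated cells in normal culture at 36 h (left) and 72 h (right), 1 point per tested gene, for the 6 genes and the 9 related lists. Filled points have an adjusted p under 0.05. Nos2, Gch1, Slc7a2, Ass1 and Asl lie to the right of 0, while most related lists hold genes on both sides. Arg2 also lies there, but it had to by the filter.

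The other genes of tetrahydrobiopterin synthesis and recycling were mixed. Of 7 tested, 1 rose and 3 fell with IL-1β in normal culture at each time (medians -0.0035 and -0.23). Pts, the second enzyme of the pathway, stood at 12.4 ± 0.601 FPKM with IL-1β and 20.4 ± 0.834 FPKM without it at 36 h, and fell by 0.67 (adjusted p = 1.39e-06). Spr, which makes the final step, rose by 0.48 at 72 h. Pcbd1, which takes part in recycling the cofactor, rose by 1.10 at 36 h.

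Among 7 tested cationic amino acid transport genes, Slc7a1 and Slc7a3, which encode CAT1 and CAT3, moved against Slc7a2 in normal culture at 36 h. Slc7a1 stood at 5.79 ± 0.389 FPKM with IL-1β and 12.6 ± 0.319 FPKM without it at 36 h in normal culture, and fell by 1.00 (adjusted p = 9.30e-10). Slc7a3 fell by 0.96 at 36 h and by 0.95 at 72 h in normal culture. In co-culture Slc7a3 was higher than in normal culture in all 4 comparisons, by 0.41 to 0.67 (adjusted p = 0.0244 or lower). In the list 4 genes fell and 1 rose with IL-1β in normal culture at 36 h, and 2 fell at 72 h (medians -0.09 and -0.04).

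**Figure D4:**
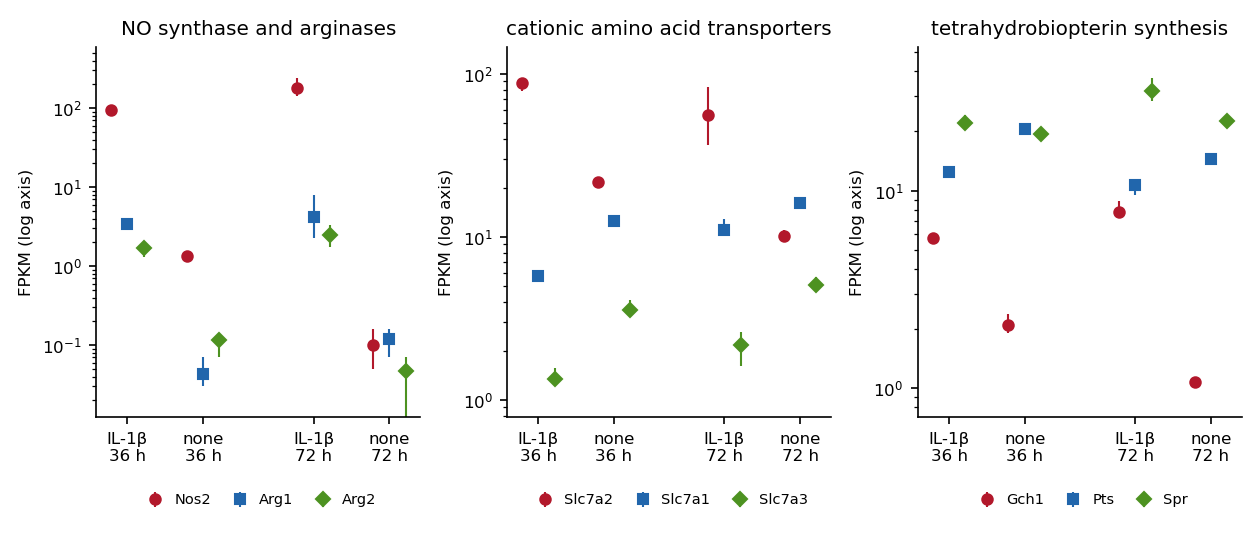
Mean FPKM (log axis) of Nos2, Arg1 and Arg2 (left), of the transporters Slc7a2, Slc7a1 and Slc7a3 (middle) and of the tetrahydrobiopterin enzymes Gch1, Pts and Spr (right) in normal culture, with bars from the lowest to the highest of 3 libraries. One Arg2 library is listed at 0 and its bar runs off the axis. Slc7a2 lies above Slc7a1 and Slc7a3 with IL-1β and below Slc7a1 in untreated cells at 72 h, and Gch1 stays below Pts and Spr.

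Of 9 tested arginine, ornithine, proline and creatine enzymes, 3 rose and 4 fell with IL-1β in normal culture at 36 h, and 4 rose and 4 fell at 72 h (medians -0.08 and -0.02). Aldh4a1, a dehydrogenase of proline breakdown, rose by 1.11 at 36 h. Arg1 rose by 2.09 at 36 h and is included in the counts of rising genes. It passed the filter through its treated libraries only, so it had to differ, and its change is a description. Aldh18a1 and Pycr1, which make proline from glutamate, fell by 1.31 and 0.98 at 36 h. The urea-cycle genes Otc, Cps1 and Nags never exceeded 0.16 FPKM. Of 10 tested polyamine genes, 3 rose and 5 fell at 36 h, and 4 rose and 4 fell at 72 h (medians -0.11 and -0.06). Smox, a spermine oxidase, stood at 45.0 ± 1.96 FPKM with IL-1β and 7.82 ± 0.557 FPKM without it at 36 h, and rose by 2.38 (adjusted p = 1.11e-16). Odc1, which uses the ornithine that arginases make, stood at 47.8 ± 1.05 FPKM with IL-1β and 50.4 ± 0.239 FPKM without it at 36 h and was not called (-0.08, adjusted p = 0.114); it was chosen after its values were seen.

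Genes that receive or remove nitric oxide were also measured. Of 5 tested guanylate cyclase and cGMP genes, 4 fell and none rose with IL-1β in each of the 4 comparisons (medians -0.59 and -0.76 in normal culture), where 41.5% and 40.3% of all genes were lower in normal culture and 35.3% and 30.6% in co-culture. The cGMP-dependent kinase genes Prkg1 and Prkg2 fell by 0.51 and 0.59 at 36 h and by 0.94 and 1.03 at 72 h in normal culture. The cyclase subunit genes Gucy1a1 and Gucy1b1 were below 1 FPKM on average in every group. In this list Gucy1a2, Gucy1b1 and Pde9a lay near the filter, with highest values of 1.37, 1.12 and 1.60 FPKM. Any of them that passed it through untreated libraries only had to fall, and this was not checked. Of 6 scavenging and denitrosylation genes, 4 rose and 1 fell at 36 h in normal culture, and 3 rose and 1 fell at 72 h (medians 0.20 and 0.14). Txnrd1 (thioredoxin reductase 1) rose by 1.38 at 36 h, and Cygb (cytoglobin) fell by 0.61. Of 6 methylarginine genes, 1 rose and 5 fell at 36 h in normal culture, and 2 rose and 2 fell at 72 h (medians -0.44 and -0.02). Ddah2, of the family that breaks down methylarginines, rose by 0.38 at 72 h.

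Of 11 tested transcription factors known to act on Nos2, 6 rose and 3 fell with IL-1β in normal culture at 36 h, and 7 rose and 2 fell at 72 h (medians 0.19 and 0.67). Nfkbiz, an inducible cofactor of NF-kB, rose by 1.93 at 36 h and by 2.97 at 72 h. Cebpb rose by 0.71 at 36 h and by 1.85 at 72 h, and Cebpd by 1.81 at 72 h. Fos was higher in co-culture at 36 h, by 2.06 with IL-1β and by 1.77 without it (adjusted p = 2.85e-17 and 5.39e-16).

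Across the 24 libraries, the log2(FPKM + 1) values of Nos2 correlated with those of Gch1 (Pearson r = 0.990), Arg2 (0.967) and Slc7a2 (0.916), less with Ass1 (0.726) and least with Asl (0.519). These values describe libraries that share treatments, so they carry no p. Among 8562 genes at a mean of 5 FPKM or more, those most like Nos2 were Glrx (glutaredoxin, r = 0.992), the chemokine genes Cxcl3 (0.992) and Cxcl2 (0.991), Il13ra2 (0.991) and Rffl (0.989). Those most like Gch1 were Csf3 (0.988), Ccl2 (0.988), Zswim4 (0.987), Tsku (0.987) and Traf3ip2 (0.987). Those most like Ass1 were Nqo1 (a quinone reductase, r = 0.997), Gclm (a subunit of the enzyme for glutathione synthesis, 0.988), Csf1 (0.983), Lzic (0.980) and Bcl2l1 (0.978).

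Nqo1 shared the rise of Ass1 with time in untreated cells, at 82.2 ± 0.433 FPKM in co-culture and 80.8 ± 4.11 FPKM in normal culture at 72 h, against 19.9 ± 0.463 and 16.1 ± 0.150 FPKM at 36 h (SD, n = 3). Those most like Slc7a2 were Birc3 (0.983), Irak3 (0.982), Grem1 (0.982), Cp (0.981) and Fgf7 (0.980), and those most like Arg2 were Lrig1 (0.986), Il11 (0.984), Wdr92 (0.984), Il13ra2 (0.982) and Tbx3 (0.981). For Asl the closest gene, Pkn3, reached 0.895.

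Markers of other cells also moved with IL-1β. Macrophages also make nitric oxide and arginase, and 10 macrophage markers summed to 19.7 to 42.3 FPKM in IL-1β libraries and 14.1 to 35.9 FPKM in untreated libraries. The pan-leukocyte gene Ptprc never exceeded 0.65 FPKM and Fcgr1 never exceeded 0.68 FPKM. Other macrophage markers were present in every library: Cd68 at 3.92 to 9.68 FPKM, Tyrobp at 1.09 to 5.93 FPKM and Fcer1g at 1.09 to 7.06 FPKM. Of the 8 tested macrophage markers, 3 rose and 2 fell with IL-1β in normal culture at 36 h, and 2 rose and 5 fell at 72 h. Cd14, which other cells also express, stood at 15.5 ± 4.88 FPKM with IL-1β and 2.42 ± 0.506 FPKM without it in normal culture at 72 h. The neutrophil gene S100a8 stood at 19.9 ± 3.02 FPKM with IL-1β and 0.503 ± 0.521 FPKM without it, while Ly6g and Elane never exceeded 0.16 FPKM. Skeletal muscle markers, 8 of 8, were higher with IL-1β in both cultures at 72 h, summing to 94.7 to 150 FPKM with IL-1β and 46.3 to 75.3 FPKM without it. At 36 h, 3 were higher and 3 lower with IL-1β in co-culture, and 3 were higher and 2 lower in normal culture. Endothelial markers summed to at most 2.37 FPKM and keratinocyte markers to at most 4.11 FPKM in any library. The part of such cells in the levels of Nos2 and Arg1 was not tested.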

How the data were processed

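Poly(A)-enriched RNA of 24 chondrocyte libraries was analysed from 1 table of FPKM values per gene, which the authors deposited as processed values. The genome build was GRCm38, per the submitters' processing notes; an aligner or a counting tool is not given in the sources used here. Sequencing depth was unknown. For 33 low genes, values were compared with whole multiples of the gene's lowest nonzero FPKM. Of 270 such values 21.1% came within a tolerance of 0.1, and chance gives 20%, so reads were not recovered for these genes. The check left out genes with the lowest nonzero values, so it cannot decide whether reads can be recovered for them.

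Genes at 1 FPKM or more in at least 3 libraries were tested on log2(FPKM + 1) with limma (version 3.58.1, R 4.3.3), with 1 mean per group, a trended prior, 16 residual degrees of freedom and no replicate block, in 18 comparisons. P-values were adjusted by the Benjamini-Hochberg method over all genes tested in a comparison, and 0.05 was the threshold. Fold changes on this scale understate the change of low genes. The code was tested on simulated data. Tables and plots used Python 3.11.15, pandas 2.3.3 and matplotlib 3.10.9.

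The 6 genes and the lists were chosen with earlier results of these data known. From each list, up to 4 called genes with the largest change were named per comparison, then those with the highest mean; for each of the 6 genes, the 5 genes with the highest Pearson r were named. Agmat, Pycr3, Agxt2, Mpo and Krt14 were not analysed here. Some genes of the lists are counted but not reported here by name. Replicate numbers were checked by the correlation of same-numbered libraries' deviations from their group means. All 3 exceeded 0.1 only for co-culture against normal culture with IL-1β at 72 h (0.364, 0.179 and 0.577), a pairing that comes from the data and not from the labels. The alternatives were a pseudocount of 0.1, no filter, a filter at 5 FPKM, TPM, median-of-ratios scaling, a fit of the compared groups alone, a replicate block, leaving out each library and, chosen after seeing the data, weights per group.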

Additional observations from a re-analysis of the deposited data

Results flagged for a closer look

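The IL-1β change of 2 genes differed between co-culture and normal culture at 36 h by a test of the difference in limma: -1.21 for Nos2 and -0.35 for Ass1, both smaller in co-culture. In that test 6.96% of all genes were called.

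The IL-1β change differed between 72 h and 36 h for 3 genes in co-culture, by 2.63 for Nos2, -1.84 for Ass1 and 0.85 for Gch1. Among all genes 28.8% were called there. In normal culture the IL-1β change differed for 4 genes, by 1.95 for Nos2, -2.14 for Ass1, 0.95 for Gch1 and 0.46 for Arg2. Among all genes 45.4% were called in normal culture. The Arg2 call was lost under several alternatives, as given above.

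The co-culture change differed between 72 h and 36 h in untreated cells by -1.02 for Nos2 and -0.59 for Ass1, and in IL-1β-treated cells by -0.29 for Ass1. Among all genes 4.97% were called in untreated cells and 2.60% in IL-1β-treated cells. Groups of 3 libraries were not tested for a single outlying library.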

How the results depend on the processing

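The IL-1β calls of Nos2, Ass1, Gch1 and Slc7a2 held under every alternative run. The 5 FPKM filter left Arg2 untested. Of 1710 values of the 6 genes under alternatives, 1603 kept their direction and side of the threshold, 58 lost a call, 13 gained one and 36 changed sign. Every change of sign was in a difference that was not called, and the cause was not tested.

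For co-culture, the fit of the compared groups alone called 3095 genes without IL-1β at 36 h (1885 in the fit of all groups) and 1330 at 72 h (414). With IL-1β it called 2 of the 6 genes at 36 h (0), and 0 of the 6 and 0 of all genes at 72 h (3 and 1520). For the differences it called 1793 (847) and 12 (379) between cultures at 36 h and 72 h, 2055 (605) between times without IL-1β, and 83 of all genes and 0 of the 6 with IL-1β (317 and 1). Weights per group gave 3514 and 1781 without IL-1β, 2075 with 1 of the 6 and 78 with 1 of the 6 under IL-1β, 1957 and 65 between cultures, 2079 between times without IL-1β, and 106 with 0 of the 6 under IL-1β. The cause was not tested. For untreated co-culture at 72 h, 2 of the 6 were called with a pseudocount of 0.1 and 0 with median-of-ratios scaling. Without filter, 0 of the 6 were called for the co-culture difference between times under IL-1β.

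Leaving out 1 library gave 1255 to 1422 and 153 to 221 genes for co-culture without IL-1β at 36 h and 72 h, with 0 of the 6 at 72 h. With IL-1β it gave 738 to 994 at 36 h and 593 to 2461 at 72 h, with 2 to 5 of the 6; the 72 h count was 613 without library 1 of the normal culture, 2461 without its library 3, and 889 and 593 without libraries 1 and 2 of the co-culture. The difference between cultures at 72 h gave 107 to 1167, with 0 to 1 of the 6. Those between times gave 394 to 560 without IL-1β and 167 to 571 with it, with 0 to 1 of the 6.

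Changes of sign were 0.12 (pseudocount 0.1) and 0.0032 (TPM) for Arg2 and -0.00081 (median-of-ratios) for Asl between cultures at 36 h, and 0.17 (pseudocount 0.1) for Nos2 at 72 h. For Asl they were also -0.0083 (TPM) for the IL-1β change between times in normal culture, and -0.024 (TPM) and -0.013 (median-of-ratios) for the untreated co-culture change between times. Leaving out 1 library gave -0.00012 to 0.064 for Arg2 between times in untreated co-culture, -0.14 to 0.082 for Arg2, -0.011 to 0.067 for Ass1 and -0.042 to 0.010 for Gch1 for co-culture with IL-1β at 36 h, and -0.12 to 0.018 for Asl at 72 h. Between cultures it gave -0.10 to 0.12 for Arg2 and -0.058 to 0.081 for Asl at 36 h, and -0.11 to 0.0019 for Ass1 and -0.58 to 0.012 for Slc7a2 at 72 h. Between times it gave -0.023 to 0.12 for Asl and -0.018 to 0.57 for Slc7a2 (IL-1β change, normal culture), -0.076 to 0.056 for Asl (untreated co-culture change) and -0.41 to 0.18 for Slc7a2 (co-culture change with IL-1β).

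A replicate block, by the pairing above, called 1582 genes (1520 without it) for co-culture with IL-1β at 72 h and changed no call of the 6 genes. The share of higher genes among those called for co-culture moved to 54.0% with median-of-ratios scaling (40.6% without scaling) in untreated cells at 36 h, to 37.1% with TPM and 62.2% with median-of-ratios (50.7%) at 72 h, and to 43.8% with median-of-ratios (57.8%) with IL-1β at 72 h. FPKM values gave no depth, so the precision of low values such as those of Arg2 was judged here only from the spread of 3 libraries. Untreated Arg2 values repeated a few levels, such as 0.07, 0.10 and 0.14 FPKM. Whether these are whole numbers of fragments was not tested. Values were listed to 2 decimals, so the 0.01 FPKM of Nos2 in untreated co-culture at 72 h was the lowest nonzero value possible. This limits its call on the log2(FPKM + 0.1) scale.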
